A study of Mus musculus with 4 samples.

Results

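The epithelial-mesenchymal transition (EMT) regulators and markers are 10 genes chosen by name, the adhesion genes Cdh1 and Epcam, the mesenchymal markers Vim, Fn1 and Cdh2, and the transcription factors Snai1, Snai2, Zeb1, Zeb2 and Twist1. All 10 were found among the 40092 genes of the count table, and 7 of them had enough counts to be tested. The counts come from bulk RNA-seq of alveolar type 2 (AT2) cells, the surfactant-producing progenitors of the alveolus, sorted as GFP+ cells from mouse lungs on day 14 after bleomycin, a drug that injures the alveolar epithelium and leads to fibrosis. There were 2 control libraries (Ctrl, Alkbh5 flox/+) and 2 knockout libraries (A5-CKO, Alkbh5 flox/flox), and the question was how loss of Alkbh5, an m6A RNA demethylase, changes the transcriptome of AT2 cells. Sftpc-CreERT2, which recombines DNA upon tamoxifen in cells that transcribe the surfactant gene Sftpc, was present in both groups, as was Rosa26-mTmG, a reporter that turns recombined cells green. All mice received tamoxifen and bleomycin, and the controls were littermates that keep 1 functional Alkbh5 allele after recombination. No uninjured group was analysed, so the effect of bleomycin on these genes was not measured. The labels do not say whether a library is 1 mouse or a pool, nor the age of the mice.

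Epithelial cells are held together by E-cadherin and EpCAM. In EMT, factors of the SNAIL, ZEB and TWIST families bind E-box motifs and repress Cdh1, while vimentin, fibronectin and N-cadherin come up. In the fibrotic lung, vimentin and fibronectin are also made in quantity by fibroblasts and macrophages, and ZEB2 is a factor of macrophages and other leukocytes as well. A transcript of these genes in sorted cells can therefore come from the epithelium or from other cells in the gate, and in bulk RNA fewer cells of a type and less RNA per cell cannot be told apart.

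The promoters of Epcam, Snai1 and Vim are shown because the results turn on an adhesion gene that was even across libraries and on a repressor and a mesenchymal marker that were not. The windows are from RefSeq on GRCm38.p6, run 5′ to 3′ along the plus strand from 250 bases before the gene start to 50 after it, and cover chr17:87635729-87636028 for Epcam, chr2:167537945-167538244 for Snai1 and chr2:13574061-13574360 for Vim. Capitals mark the E-box hexamer CACCTG, the core bound by SNAIL and ZEB factors, in either orientation (CACCTG or CAGGTG).
Epcam: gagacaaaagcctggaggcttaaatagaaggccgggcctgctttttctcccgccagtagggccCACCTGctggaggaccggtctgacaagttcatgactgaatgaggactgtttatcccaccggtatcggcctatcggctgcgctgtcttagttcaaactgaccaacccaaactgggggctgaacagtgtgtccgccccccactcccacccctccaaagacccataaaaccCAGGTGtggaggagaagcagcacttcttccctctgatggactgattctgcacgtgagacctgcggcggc
Snai1: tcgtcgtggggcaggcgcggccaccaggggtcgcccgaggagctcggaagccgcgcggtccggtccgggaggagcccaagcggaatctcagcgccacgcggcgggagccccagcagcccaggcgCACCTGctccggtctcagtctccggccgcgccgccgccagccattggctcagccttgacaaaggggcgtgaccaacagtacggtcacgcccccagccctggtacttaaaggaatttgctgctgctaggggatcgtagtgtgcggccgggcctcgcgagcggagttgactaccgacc
Vim: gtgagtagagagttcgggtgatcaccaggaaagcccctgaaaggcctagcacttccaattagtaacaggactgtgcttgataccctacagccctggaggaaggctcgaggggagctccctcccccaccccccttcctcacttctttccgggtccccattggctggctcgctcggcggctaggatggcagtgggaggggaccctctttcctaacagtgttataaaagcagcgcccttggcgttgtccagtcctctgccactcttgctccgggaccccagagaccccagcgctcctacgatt
Epcam held 2 hexamers, with first bases 187 and 19 bases before the start, and Snai1 held 1, at 126 bases before it. The Vim window held 0. Of the 32851 windows of this length that were searched, 20.2% held at least 1 hexamer and 2.88% held at least 2. Among the members, Zeb2 and Twist1 also had windows, without the hexamer. Cdh1, Fn1 and Snai2 had no window in the source used. Cdh2 and Zeb1 were left out of the search, so whether their windows hold the hexamer was not examined. A match describes these letters only, and binding was not measured.

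Values of a genotype are given for library 1 and then library 2. The total count ranged from 18144865 to 20811757 per library, and normalized counts (CPM, the count scaled to a common library size) were scaled with TMM factors from 0.860 to 1.13. The targeted gene was examined first. Alkbh5 (chromosome 11, 60537683 to 60558512, GRCm38.p6) had 81.7 and 152 normalized counts in Ctrl against 19.3 and 36.6 in A5-CKO, with no overlap of the genotypes. Its log2 fold change was -2.06 ± 0.46 (standard error), with an adjusted p of 0.528 in the quasi-likelihood test of edgeR (Benjamini-Hochberg adjustment) and 0.0224 in DESeq2, and of 0.0214 to 0.899 over the alternatives. Of the defining markers of the sorted type, Sftpc had from 7856 to 16371 normalized counts, while the receptor gene Ager, a defining AT1 marker, had at most 0.349. Pdpn, another gene of the AT1 list, was also low, with at most 0.770. Others of the list were well detected, with Aqp5, a water channel, from 479 to 981 and Emp2, a membrane protein, from 829 to 1022.

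No member passed the test between genotypes. In edgeR, 0 of 7 reached an adjusted p under 0.05, as 0.0% of the 16661 genes tested did. None of the 7 had an unadjusted p under 0.05 either, against 9.18% of all genes, and DESeq2 with default filtering called 0 members at an adjusted p under 0.05, against 0.385% of genes. For each tested member other than Epcam, a larger difference lay between the libraries of at least 1 genotype. Epcam varied little over the 4 libraries, whereas Vim, Fn1 and Zeb2 were high in Ctrl 1 and A5-CKO 2, and Snai1 and Zeb1 were highest in A5-CKO 2.

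**Figure D1:**
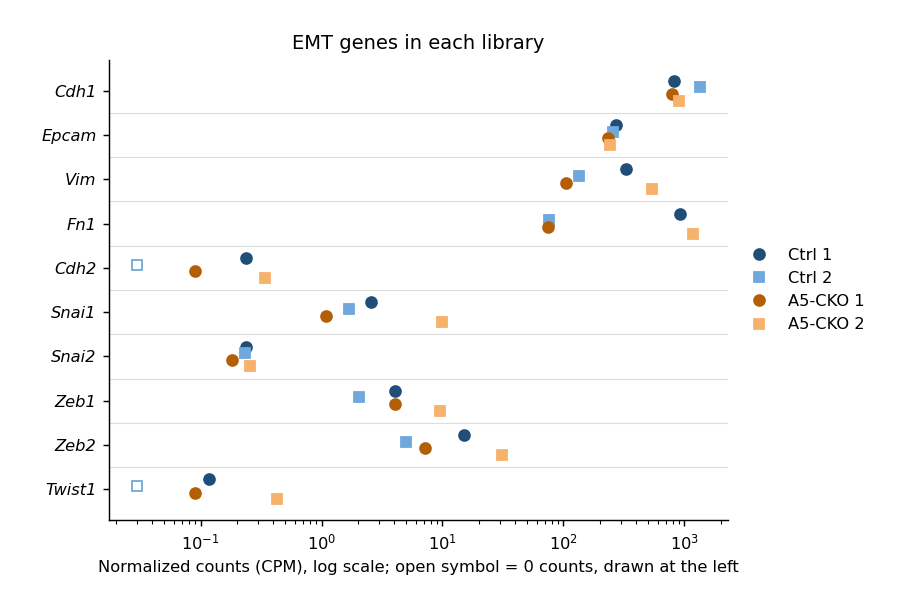
Normalized counts (CPM, log axis) of the 10 EMT genes, with 1 symbol per library (blue, Ctrl 1 and Ctrl 2; orange, A5-CKO 1 and A5-CKO 2) and open symbols for 0 counts. Epcam lies within 235 to 274 in all libraries, while Fn1 lies at 76.2 and 74.8 in Ctrl 2 and A5-CKO 1 and at 916 and 1170 in Ctrl 1 and A5-CKO 2.

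Per kilobase of exon, the adhesion genes had the highest mean levels of the members. In normalized counts, Fn1 was above both of them in Ctrl 1 and A5-CKO 2. Cdh1 (chromosome 8, 106603350 to 106670247, GRCm38.p6), which encodes E-cadherin, had 819.6 and 1343 normalized counts in Ctrl against 793 and 899 in A5-CKO. These average to 1081 ± 370.3 (SD, n = 2) for Ctrl and 846 ± 75.2 (SD, n = 2) for A5-CKO, and the genotypes overlapped, since Ctrl 1 lay between the A5-CKO libraries. Its log2 fold change was -0.35 (standard error 0.39, 95% interval -1.28 to 0.57, adjusted p = 0.756 in edgeR). The difference rested on Ctrl 2, without which the log2 fold change was 0.02. It also depended on the scaling, as the log2 fold change was -0.02 with total counts only.

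Epcam (chromosome 17, 87635979 to 87651127), which encodes the epithelial cell adhesion molecule, was the most even member. It had 274 and 256 normalized counts in Ctrl against 235 and 241 in A5-CKO, and it was the 1 member whose genotypes did not overlap. Both A5-CKO libraries were also below both Ctrl libraries for 23.5% of all genes tested, and both were above for 20.3%, a class that held 0 members. The log2 fold change of Epcam was -0.15 (standard error 0.30, 95% interval -0.86 to 0.56, adjusted p = 0.875 in edgeR), and it was 0.16 with total counts only and 0.07 with a correction for transcript length and GC content, so that its direction followed the scaling.

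Fn1 (chromosome 1, 71585473 to 71653280), which encodes the matrix protein fibronectin, was the most variable member. It had 916 and 76.2 normalized counts in Ctrl against 74.8 and 1170 in A5-CKO. The lower libraries of both genotypes were thus at nearly the same level. Fn1 was 12-fold higher in Ctrl 1 than in Ctrl 2 and 15.6-fold higher in A5-CKO 2 than in A5-CKO 1, and only 0.306% and 0.336% of the genes tested differed more within Ctrl and within A5-CKO. Between genotypes the log2 fold change was 0.33 (standard error 1.33, 95% interval -2.82 to 3.48, adjusted p = 0.940 in edgeR). It was 3.13 without Ctrl 1, -0.56 without Ctrl 2, 1.24 without A5-CKO 1 and -2.73 without A5-CKO 2, so its direction was set by which library was kept. With the correction for length and GC content it was -0.14.

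Vim (chromosome 2, 13574311 to 13582826), which encodes the intermediate filament vimentin, had 327 and 134 normalized counts in Ctrl against 104 and 537 in A5-CKO. The Ctrl libraries lay between the A5-CKO libraries. Vim was 2.44-fold higher in Ctrl 1 than in Ctrl 2 and 5.14-fold higher in A5-CKO 2 than in A5-CKO 1. Its log2 fold change was 0.48 (standard error 0.76, 95% interval -1.32 to 2.28, adjusted p = 0.843 in edgeR), and it became -1.14 without A5-CKO 2 and -0.03 without Ctrl 2. Cdh2, which encodes N-cadherin, the cadherin that replaces E-cadherin in full EMT, had 4 and 0 counts in Ctrl against 2 and 8 in A5-CKO. These are 14 reads in all, too few to test, and 3 counts correspond to 0.128 to 0.177 normalized counts in a library.

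Of the transcription factors, Snai1, Zeb1 and Zeb2 were measurable and Snai2 and Twist1 were near the floor. Snai1 (chromosome 2, 167538195 to 167542814), a zinc-finger repressor of Cdh1, had 43 and 29 counts in Ctrl against 24 and 232 in A5-CKO, or 2.54, 1.69, 1.09 and 9.92 normalized counts. A single library, A5-CKO 2, held most of them, 9.13-fold above A5-CKO 1. Between genotypes its log2 fold change was 1.38 (standard error 0.98, 95% interval -0.96 to 3.71, adjusted p = 0.634 in edgeR) and turned to -0.96 without A5-CKO 2.

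Zeb2 (chromosome 2, 44983512 to 45117442), a zinc-finger and homeodomain repressor, had 15.1 and 5.0 normalized counts in Ctrl against 7.20 and 30.8 in A5-CKO. The order of the libraries was that of Fn1 but for the lower pair. Its log2 fold change was 0.91 (standard error 0.79, 95% interval -0.95 to 2.78, adjusted p = 0.690 in edgeR), and -0.48 without A5-CKO 2. The antisense gene Zeb2os, which overlaps the Zeb2 locus, had 78 and 16 counts in Ctrl against 32 and 106 in A5-CKO. As the sources used here do not give how strand was handled in counting, reads of the pair where they overlap cannot be told apart.

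Zeb1, the paralogue of Zeb2, had 4.08 and 2.04 normalized counts in Ctrl against 4.03 and 9.49 in A5-CKO, from 35 to 222 counts. A5-CKO 1 was level with Ctrl 1, so the genotypes overlapped. Its log2 fold change of 1.14 (standard error 0.67, 95% interval -0.44 to 2.73, adjusted p = 0.578 in edgeR) was the only one among the 3 measurable factors that stayed positive with each library left out in turn, from 0.40 without A5-CKO 2 to 1.82 without Ctrl 1. Snai2, which encodes SLUG, had 4 and 4 counts in Ctrl against 4 and 6 in A5-CKO. Twist1, a basic helix-loop-helix factor, had 2 and 0 counts in Ctrl against 2 and 10 in A5-CKO, and neither gene was tested.

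**Figure D2:**
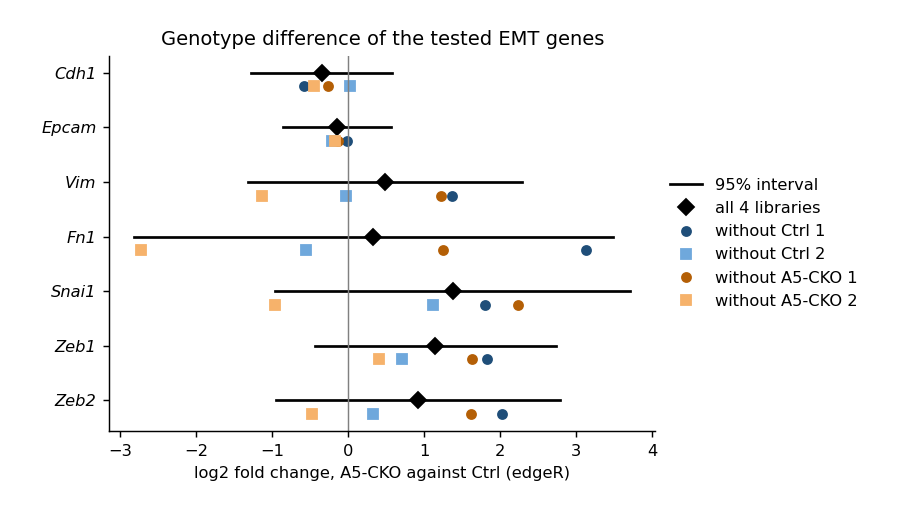
log2 fold change of A5-CKO over Ctrl from edgeR for the 7 tested EMT genes (black diamond, all 4 libraries; black line, 95% interval), with the value after leaving out each library below it. All 7 intervals span 0, and for Fn1 the value runs from -2.73 without A5-CKO 2 to 3.13 without Ctrl 1.

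Levels were compared between genes per kilobase of exon (RPKM, normalized counts divided by the length of all exons of the gene joined in GENCODE M21). The counting itself used an NCBI annotation, and joined exons can exceed the transcript in use, so these levels are approximate. Cdh1 ranked first of the 10 members, with 173 to 294 RPKM over the 4 libraries, above Epcam with 107 to 125, and the ranges did not overlap. Vim followed with 22.0 to 113 RPKM and Fn1 with 6.40 to 100.1, and the ranges of Epcam and Vim and of Vim and Fn1 overlapped. The factors lay below these 4, though the highest value of Snai1 was close to the lowest of Fn1. Snai1 had 0.670 to 6.12 RPKM, Zeb2 0.251 to 1.54 and Zeb1 0.198 to 0.924, each overlapping its neighbour in this order. Snai2 had at most 0.127, Twist1 at most 0.263 and Cdh2 at most 0.0424 RPKM, and the ranges of these 3 overlapped except for Snai2, which lay above Cdh2 in all 4 libraries. Among 15237 tested genes with a length, Fn1 moved from rank 6526 in Ctrl 2 and 6580 in A5-CKO 1 to rank 809 in Ctrl 1 and 444 in A5-CKO 2, while Cdh1 stayed between ranks 171 and 341.

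Ratios of counts within a library do not depend on the scaling. For each count of Fn1 there were 0.895 and 17.6 counts of Cdh1 in Ctrl against 10.6 and 0.769 in A5-CKO. In Ctrl 1 and A5-CKO 2, Fn1 thus had more reads than Cdh1. The log2 ratio of Vim to Cdh1 was -1.33 and -3.33 in Ctrl against -2.93 and -0.74 in A5-CKO, and on average it differed by 0.49 between the genotypes, less than the gap between the libraries of either. That of Fn1 to Cdh1 differed by 0.48 between the genotypes, while it ran from -4.14 in Ctrl 2 to 0.38 in A5-CKO 2. No test was made of these ratios.

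Of the 7 tested members, 6 (Epcam, Vim, Fn1, Snai1, Zeb1 and Zeb2) were higher in Ctrl 1 than in Ctrl 2 and also higher in A5-CKO 2 than in A5-CKO 1, as were 27.1% of all genes tested. For Epcam these differences were 1.07-fold and 1.02-fold. For the other 5 they were from 1.51-fold to 12-fold within Ctrl and from 2.36-fold to 15.6-fold within A5-CKO, where the median gene differed by 1.37-fold and 1.32-fold in either direction. This pattern was seen in the values before it was counted.

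**Figure D3:**
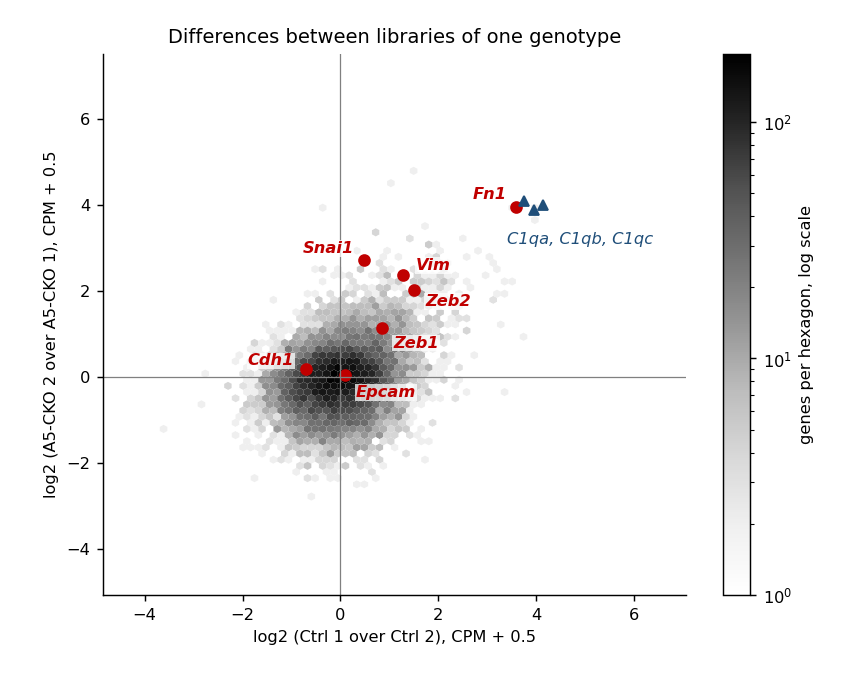
Difference between the libraries of 1 genotype for all 16661 genes tested (grey hexagons, darker with more genes), as log2 of Ctrl 1 over Ctrl 2 on the x axis and of A5-CKO 2 over A5-CKO 1 on the y axis, with 0.5 added to each CPM. Fn1 (red) lies beside C1qa, C1qb and C1qc (blue triangles) at the far upper right, and Vim and Zeb2 lie on the same side nearer the centre, with Epcam and Cdh1 within the bulk of genes.

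The genes whose counts stayed closest to a member's were found by the ratio of counts in each library, taking the highest over the lowest of the 4 ratios as the measure, over the 14542 other genes with at least 10 counts in every library. The plan of the analysis made no such ranking, since 4 libraries are too few for a correlation. It was added after the values were seen and is a description. For Fn1 the closest gene of all was C1qc, followed by C1qb, an immunoglobulin light chain segment (Iglj2) and C1qa. The C1q genes encode the chains of complement C1q, made in tissues mainly by macrophages. There were 7.20 and 8.45 counts of Fn1 for each count of C1qc in Ctrl against 8.02 and 7.07 in A5-CKO, a highest ratio 1.20 times the lowest. For C1qb this was 1.41 and for C1qa 1.53, and 3 genes in all lay within 1.5. Against the collagen gene Col1a1 it was 2.66, and against Cldn4, a claudin of transitional epithelial cells, it was 7.07. Among the genes of all marker and pathway lists described below, the C1q genes were the only ones at 1.53 or less. Other macrophage genes thus followed Fn1 less closely. Cd68, for example, had 157 and 54.6 normalized counts in Ctrl against 34.1 and 153 in A5-CKO.

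For Vim, the closest were Ddah1 (1.09), which degrades methylated arginines, and Cfp (1.20), which encodes the complement factor properdin, and 45 genes lay within 1.5. For Zeb2, 43 genes lay within 1.5. The ratio of Zeb2 to Csf1r, the receptor for macrophage colony-stimulating factor, was from 0.140 to 0.236. For Snai1, the first was Cd33 (1.20), a myeloid surface receptor, and the fifth was the microfibril gene Fbn1 (1.5), with 4 genes within 1.5. For Zeb1, which varied less, Rnd3 (1.05) was first of 102 genes within 1.5.

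**Figure D4:**
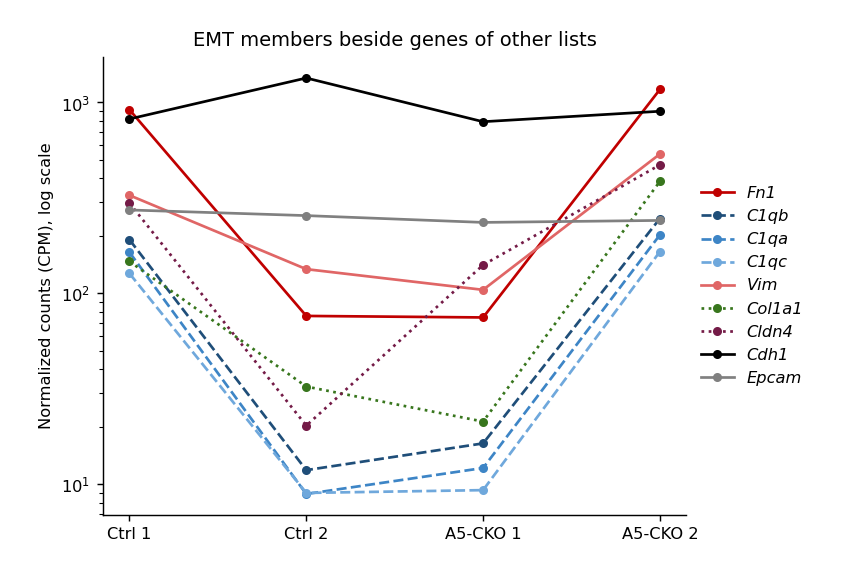
Normalized counts (CPM, log axis) of 4 EMT members and 5 genes of other lists in each library, joined by lines only to guide the eye, since the libraries have no order. Fn1 and the C1q genes run in parallel, C1qb from 191 to 11.9, 16.4 and 247, while Epcam is flat.

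Some marker lists of other cell types had sums in the same order within both genotypes as these members. The leukocyte and macrophage list summed to 1471 and 402 normalized counts in the Ctrl libraries and to 437 and 1731 in the A5-CKO libraries, leaving out the lysozyme gene Lyz2, which AT2 cells also express (7488 to 14828 normalized counts). With Lyz2 the sums were 13789 and 15231 against 9265 and 9219.5, without that order, and it was left out after these values were seen. Of its 21 genes, 15 were higher in Ctrl 1 than Ctrl 2 and in A5-CKO 2 than A5-CKO 1. Cd68, a macrophage marker, had 157 and 54.6 normalized counts in Ctrl against 34.1 and 153 in A5-CKO. Ptprc, the common leukocyte antigen, did not follow that order and had 50.9 and 22.5 in Ctrl against 84.3 and 82.8 in A5-CKO.

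The fibroblast and smooth muscle list, leaving out Sparc (466 to 1033 normalized counts), summed to 598 and 216 in Ctrl and to 155 and 1516 in A5-CKO, and with Sparc to 1353 and 682 against 814 and 2549. Of its 20 genes, 17 had the same order within both genotypes. Col1a1 had 147, 32.5, 21.3 and 386 normalized counts and Col1a2 had 103, 36.8, 26.2 and 305. Among the contractile and stromal markers, Acta2 had 27.5, 6.98, 2.67 and 80.2, S100a4 had 41.2, 7.85, 9.42 and 56.3, and Pdgfra had 9.17, 11.3, 5.52 and 22.9. No gene of these 2 lists was at 0 in all libraries.

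The endothelial and mesothelial list summed to 303 and 296 in Ctrl against 152 and 353 in A5-CKO, with Cldn5 at 0 in every library, Pecam1 from 29.7 to 50.2, and 3 of 11 tested genes in that order. The list of transitional epithelium, cells that pass from AT2 to AT1, had that order in 11 of 11 tested genes and summed to 5367 and 2421 in Ctrl and to 3384 and 5486 in A5-CKO. Its keratin gene Krt8 had 832, 537, 537 and 836 normalized counts, Cldn4 had 297, 20.3, 141 and 471, and Itgb6 had 80.5, 17.8, 76.7 and 89. The AT2 list summed to 56952 and 82551 in Ctrl and to 42442 and 35101 in A5-CKO, with 0 of 11 genes in that order, and the AT1 list summed to 2234, 2186, 1934 and 2204, with Hopx at 124, 63.3, 146 and 143. The members Vim, Fn1, Snai1 and Zeb2 thus shared this order with most genes of the macrophage, fibroblast and transitional epithelium lists. It was also the order of 27.1% of all genes tested, and the sizes differed. Snai1 was only 1.51-fold higher in Ctrl 1 than in Ctrl 2. For Vim the highest ratio of counts was 7.57 times the lowest against C1qa and 3.52 times against Col1a1. The part of each cell type in the levels of these members was not tested.

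**Figure D5:**
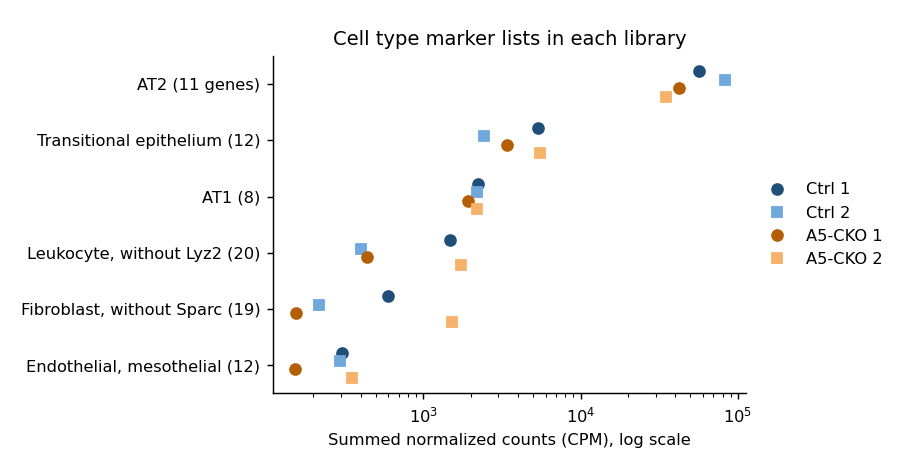
Summed normalized counts (CPM, log axis) of 6 marker lists in each library (blue, Ctrl 1 and Ctrl 2; orange, A5-CKO 1 and A5-CKO 2), with the number of genes summed in parentheses and with Lyz2 and Sparc left out after their values were seen. The leukocyte and fibroblast sums are higher in Ctrl 1 (1471 and 598) and A5-CKO 2 (1731 and 1516) than in Ctrl 2 and A5-CKO 1. The AT1 sums, made up mostly of Aqp5 and Emp2, lie close together, while a single gene such as Hopx runs from 63.3 to 146.

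Genes that hold cells epithelial were described next. Of 19 such factors and proteases, 18 were tested, 0 had an adjusted p under 0.05 in edgeR, and 2 had an unadjusted p under 0.05, both lower in A5-CKO, a share near the 9.18% of all genes tested. These were Cebpa, a factor of AT2 maturation, with 1044 and 1532 normalized counts in Ctrl against 404 and 470.4 in A5-CKO, and Prss8, a membrane serine protease of epithelia, with 348 and 391 against 138 and 141. Neither gene's genotypes overlapped. The log2 fold change of Cebpa was -1.56 (standard error 0.38) and that of Prss8 was -1.41 (standard error 0.31), with an adjusted p of 0.528 for both in edgeR, of 0.0297 and 0.0335 in DESeq2 with default filtering, and of 0.0115 to 0.899 over the alternatives for the pair. The median log2 fold change of the 18 was -0.35, beside -0.02 for all genes tested, and it stayed below 0 in every alternative, from -0.59 to -0.03. The genotypes overlapped for Grhl2, a grainyhead factor that sustains Cdh1, at 35.1 and 71.7 in Ctrl against 63.8 and 40.2 in A5-CKO, and for the splicing regulator Esrp1, at 73.6 and 101 against 82.9 and 79.5. Neither of the next genes by p overlapped between genotypes. Ovol2, a repressor of Zeb1, had 8.04 and 11.9 against 4.98 and 4.45, and Spint2, a protease inhibitor, had 749 and 744 against 469.9 and 407, neither with an unadjusted p under 0.05. Of the 18, 9 were lower in both A5-CKO libraries and 2 were higher in both, as were 23.5% and 20.3% of all genes tested.

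Among 28 genes of the cadherin complex and epithelial junctions, all were tested, 0 passed the adjusted threshold in edgeR, and 3 had an unadjusted p under 0.05, all lower in A5-CKO, again a share near the 9.18% of all genes. Crb3, a polarity protein, had 182 and 123 normalized counts in Ctrl against 77.0 and 88.9 in A5-CKO. The claudin gene Cldn3 had 828 and 742 against 419.9 and 437, and the tight junction scaffold Tjp3 had 213 and 151 against 122 and 70.1. Their log2 fold changes were -0.88 (standard error 0.32), -0.87 (standard error 0.33) and -0.92 (standard error 0.38). With the correction for length and GC content they were -0.46, -0.42 and -0.63, none at an unadjusted p under 0.05, and with total counts only -0.58, -0.56 and -0.62, likewise. Without Ctrl 1, Crb3 was at -0.49 and Tjp3 at -0.58, and without A5-CKO 2 Tjp3 was at -0.57. In the list as a whole, 17 genes had a log2 fold change above 0 and 11 below, and the median was 0.12. Ctnnb1, which encodes the β-catenin that links E-cadherin to actin, had 1217 and 1525 against 1387 and 1000.4, and Cgn, the scaffold cingulin, had 83.8 and 110.5 against 189 and 121.

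Of 18 other factors linked to EMT, 13 were tested and 1 had an unadjusted p under 0.05, a share no higher than the 9.18% of all genes. This was Tcf4, an E-protein partner of TWIST factors, with 14 and 14.5 normalized counts in Ctrl against 26.1 and 28.9 in A5-CKO (log2 fold change 0.95, standard error 0.34). Twist2 had at most 0.256 and was not tested. The next genes by p, Id2, Tcf3 and Hif1a, had log2 fold changes of -0.72, -0.55 and 0.54. In the TGF-beta pathway, the main inducer of EMT in the lung, 20 of 20 genes were tested. Their median log2 fold change was 0.28, beside -0.02 for all genes tested, and it ran from -0.1 to 0.64 over the alternatives. Skil, a feedback repressor of SMAD signalling, had 52.7 and 38.0 normalized counts in Ctrl against 94.2 and 75.8 in A5-CKO (log2 fold change 0.91, standard error 0.31), and Bambi, a decoy receptor, had 36.5 and 66.4 against 31.8 and 19.5 (log2 fold change -1.0, standard error 0.42). These were the 2 of 20 genes of the pathway at an unadjusted p under 0.05, a share near the 9.18% of all genes. With the correction for length and GC content the log2 fold change of Tcf4 was 0.29 and that of Skil 0.34, neither at an unadjusted p under 0.05, and without Ctrl 2 that of Bambi was -0.54. The ligand Tgfb1 had 137 and 86.5 against 45 and 82.2, the ligand Tgfb2 had 21.0 and 3.72 against 19.8 and 23.1, and the integrin subunit Itgav, which helps to activate latent TGF-beta, had 122 and 65.9 against 96.7 and 199.

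Of 14 receptors and partners of fibronectin and vimentin, 14 were tested and 0 had an unadjusted p under 0.05. Itga5, the fibronectin receptor subunit, had 65.4 and 32.7 normalized counts in Ctrl against 33.7 and 84.6 in A5-CKO, highest in A5-CKO 2 and next in Ctrl 1, as Fn1 was, but over a narrower range. The hyaluronan receptor Cd44 had 398 and 271 against 304 and 388. Of the genes with the smallest p, the syndecans Sdc1 and Sdc4 had 1639 and 2058 against 934 and 1155 and 760.3 and 1133 against 625 and 600.2, while the intermediate filament genes Des and Nes had 5.85 and 2.39 against 1.77 and 30.3 and 6.80 and 4.25 against 6.79 and 11. No gene of these pathway lists passed the adjusted threshold in edgeR, and DESeq2 with default filtering called 2 of them, Cebpa and Prss8.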

How the data were processed

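RNA-seq was analysed in 2 Ctrl and 2 A5-CKO libraries. The authors deposited raw counts per gene, made from reads trimmed with Trim Galore 0.6.10, cleared of ribosomal RNA, aligned with HISAT2 2.2.1 to mm10.p6, freed of duplicates by sambamba, and tallied with featureCounts 2.0.3, per the submitters' processing notes and the Methods. The Methods give the counting under MeRIP-seq. No strand setting is given in the sources used here, so antisense and overlapping genes are uncertain. Replicates were not pooled.

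The main test was that of edgeR 4.0.16 (R 4.3.3), with TMM factors, filterByExpr (16661 of 40092 genes kept), estimateDisp, glmQLFit and glmQLFTest, and Benjamini-Hochberg adjustment over all genes tested. Its common dispersion of 0.173 equals a biological coefficient of variation of 41.6%. Standard errors are the log2 fold change over the square root of F, and intervals use the fit's degrees of freedom. Within-genotype spreads were ranked on log2(CPM + 0.5). DESeq2 1.42.0, limma 3.58.1 (voom) and the other fits of the closing section were alternatives. The length and GC correction fitted splines (4 degrees of freedom) in each library to the longest GENCODE M21 transcript (15237 genes). The fit was tested on simulated counts. With 2 libraries in each group an exact two-sided permutation test cannot go below p = 0.333, and the p-values measure the spread between these libraries. A count of 3 was taken as the floor, which covers counting error only.

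The members and lists were chosen with earlier results of these data known. Named genes are the members, Alkbh5, preset examples of each list and the genes of each pathway list with the smallest p, up to 4. The ranking by count ratios, the genes it names and the C1q genes, Csf1r and Sparc departed from this rule and were chosen with their values in view. Coordinates are RefSeq's on GRCm38.p6. The gene closest to Zeb2 by count ratio is not reported here.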

Additional observations from a re-analysis of the deposited data

How the results depend on the processing

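Over the alternatives fitted to all 4 libraries (RLE, upper-quartile and no scaling factors, no filter, a minimum of 10 counts in each library, edgeR's robust option, limma voom, DESeq2, the replicate block, and the correction for length and GC content), 0 members had an adjusted p under 0.05 and 0 had an unadjusted p under 0.05. Of 77 values of the 7 members in these fits, 3 changed direction, those of Epcam with total counts only (0.16) and with the correction (0.07) and that of Fn1 with the correction (-0.14). Total counts moved the median log2 fold change of all genes from -0.02 to 0.30. Of 28 values with 1 library left out, 7 changed direction. The log2 fold change ranged from -0.58 to 0.02 for Cdh1, -0.22 to -0.02 for Epcam, -1.14 to 1.36 for Vim, -2.73 to 3.13 for Fn1, -0.96 to 2.23 for Snai1, 0.40 to 1.82 for Zeb1 and -0.48 to 2.02 for Zeb2. The values that changed sign were those without Ctrl 2 for Cdh1 (0.02), Vim (-0.03) and Fn1 (-0.56), and those without A5-CKO 2 for Vim (-1.14), Fn1 (-2.73), Snai1 (-0.96) and Zeb2 (-0.48). The count of members at an unadjusted p under 0.05 ranged from 0 to 3 with 1 library left out, and the 3 (Snai1, Zeb1 and Zeb2) came without A5-CKO 1, where A5-CKO 2 stands alone for its group and is assumed to vary like Ctrl.

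The log2 fold change of Alkbh5 was -2.01 in DESeq2 over the genes edgeR tested (adjusted p 0.0214) and -2.02 with default filtering (0.0224), and -2.60 to -1.56 with 1 library left out. DESeq2 called 64 and 59 genes in all, and edgeR 0, with 1530 at an unadjusted p under 0.05. DESeq2 called 2 genes of the pathway and marker lists in both settings, where edgeR called 0. The cause was not tested.

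The replicate numbers were not shown to pair the libraries. Across genes, the deviations of same-numbered libraries correlated at -0.35. With the replicate block, 0 members were called, 754 genes had an unadjusted p under 0.05, the log2 fold change of Fn1 was 0.16, that of Vim 0.18 and that of Snai1 0.69. With the numbers crossed, chosen after seeing the data, 0 members and 4 genes of the other lists were called. In that fit 230 of all 16661 genes tested were called. Depth limits Cdh2, Snai2 and Twist1, with 14 to 18 reads each over the 4 libraries.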
